A study of Homo sapiens with 4 samples.

Results

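Long intergenic noncoding RNAs (lincRNAs) that were expressed in HT8 cells, a human line labelled as colon cancer, were described across 4 RNA-seq libraries. Of 7629 genes with the type lincRNA in GENCODE 29, 2618 were above 0 in any library, and the 358 with a mean of at least 1 FPKM over the 4 libraries were kept. FPKM is a fragment count divided by exon length and library size. The 358 genes were 2.80% of the 12777 genes of any type at or above the same level, out of 58735 in all. Control libraries (2) and libraries labelled PPDPF knockdown (2) were both HT8 cells, the titles of the latter add the term cas1, which is not explained, and no treatment, dose or time is given in the labels. Which reagent was used against PPDPF, and whether a group is 1 clone, is not stated, nor is it stated that the libraries came from separate cultures, so the p-values measure the spread between these libraries, which may be technical.

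A typical lincRNA is spliced and polyadenylated much like a messenger RNA, lies outside protein-coding genes and has no long open reading frame. Some act as scaffolds or decoys for proteins, some organise nuclear bodies, and others carry a small nucleolar RNA (snoRNA) or a microRNA in an intron or exon and release it during processing. In bowel cancer cells a number of them, such as UCA1 and CRNDE, have been studied as transcripts raised in tumours.

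PPDPF, the gene named in the knockdown label, was at 237 and 266 FPKM in the control libraries and at 281 and 283 in the libraries labelled knockdown. It was not lower in the labelled group (log2 change 0.16 ± 0.06 SE, limma adjusted p = 0.094), so the groups are called by their labels below. Between 17069628 and 19479906 reads per library fell in genes. All 11 colon epithelium markers checked, among them EPCAM, VIL1 and CDX2, had a mean of at least 1 FPKM over the 4 libraries, KRT20 only through the labelled group (0.339 and 0.717 FPKM in the controls, 2.61 and 2.94 in the labelled group). Of 6 fibroblast and 3 endothelial markers none reached that level, and COL1A2, DCN and CDH5 were at 0. Of 5 leukocyte markers only CD14 reached it, while PTPRC and CD3E were at 0. The labels do not describe a mixture, but in bulk RNA a lower level in every cell and fewer cells that express a gene cannot be told apart.

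The lincRNAs were short, sparsely expressed genes beside the protein-coding ones. Their median level was 1.95 FPKM, against 8.79 FPKM for the 10766 coding genes above the threshold. Median exon length was 1164.5 bases against 5066, and 34.6% of lincRNAs had a single exon block against 2.21% of coding genes. All 358 together took 0.292% of the reads in genes in each control library and 0.308% and 0.300% in the libraries labelled knockdown. Only 60 lincRNAs had a mean of at least 5 FPKM, 20 of at least 10 and 8 of at least 20. The median lincRNA was counted by 45.25 reads per library, and 191 of the 358 had a mean under 50 reads. At the threshold itself, AL512274.1, AC135782.1 and AC146944.4 lay just inside at a mean of 1.00 FPKM, and AC017074.1 (0.997), LINC00476 (0.997) and LINC00471 (0.994) just outside.

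NORAD, a cytoplasmic RNA induced by DNA damage and known for its part in keeping chromosomes stable, was the most abundant lincRNA and the only one with a mean above 50 FPKM over the 4 libraries. It is a gene of 1 exon of 5339 bases on chr20:36045622-36050960, minus strand (GRCh38), and ranked 329 among all genes. Its GENCODE 29 transcript held 15 copies of the element TGTANATA, searched on the RNA's own strand. That is 2.81 per kilobase, against 0.120 per kilobase over the other 357 lincRNAs and 0.129 per kilobase over the tested coding genes. Of 12771 tested genes with a transcript, 3 held at least 15. In NORAD the elements came in pairs at 3 places, with starts 9 bases apart, and these stretches are shown as examples of the repeated unit. Capitals mark the elements, at transcript positions 1442 and 1451, 2639 and 2648, and 3275 and 3284, in genome windows chr20:36049493-36049529, chr20:36048296-36048332 and chr20:36047660-36047696.
NORAD pair at 1442: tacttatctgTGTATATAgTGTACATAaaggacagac
NORAD pair at 2639: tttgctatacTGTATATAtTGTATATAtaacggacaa
NORAD pair at 3275: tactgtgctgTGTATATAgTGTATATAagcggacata

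NORAD was at 85.7 and 82.8 FPKM in the control libraries and at 112 and 111 FPKM in the libraries labelled knockdown, from 8048 to 10347 reads. The groups did not overlap, and the difference was 0.40 ± 0.03 (SE) on the log2(FPKM + 1) scale, with a limma adjusted p of 0.0020. NORAD alone took 15.9% and 15.3% of all lincRNA reads in the control libraries and 19.4% and 19.6% in those labelled knockdown. With each library left out in turn its adjusted p was 0.018 or less. Stretches of at least 100 bases in 3 other annotated genes were near-identical to NORAD, so that some reads may be split between them. The other lincRNA with as many TGTANATA elements was HCG11, with 16 in 5696 bases, and its values were 1.69, 1.61, 1.22 and 0.849 FPKM, a log2 difference of -0.39 that did not pass (adjusted p = 0.098). The lincRNAs nearest to NORAD in profile, by the distance between their log2 levels after centring over the 4 libraries, were AC008946.1 (distance 0.039), LINC00467 (0.046) and AC005332.6 (0.099).

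Below NORAD, SNHG8 was the next in order of level, followed by AC247036.1, AC103702.2, IGFL2-AS1, SNHG19, AL161431.1, NUP50-DT, MALAT1, AC007785.1, AC026401.3 and EBLN3P. These 12 held between 28.3% and 29.3% of the summed lincRNA FPKM in each library. A gene is named as called here when its limma p, adjusted by Benjamini-Hochberg over all 12777 tested genes, was under 0.05. Of the 12 most abundant, 3 were called higher in the labelled group (NORAD, AL161431.1, NUP50-DT) and 4 lower (SNHG8, AC103702.2, IGFL2-AS1, SNHG19), where 29.9% of all tested genes and 38.1% of coding genes at 5 FPKM or more were called in either direction.

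**Figure D1:**
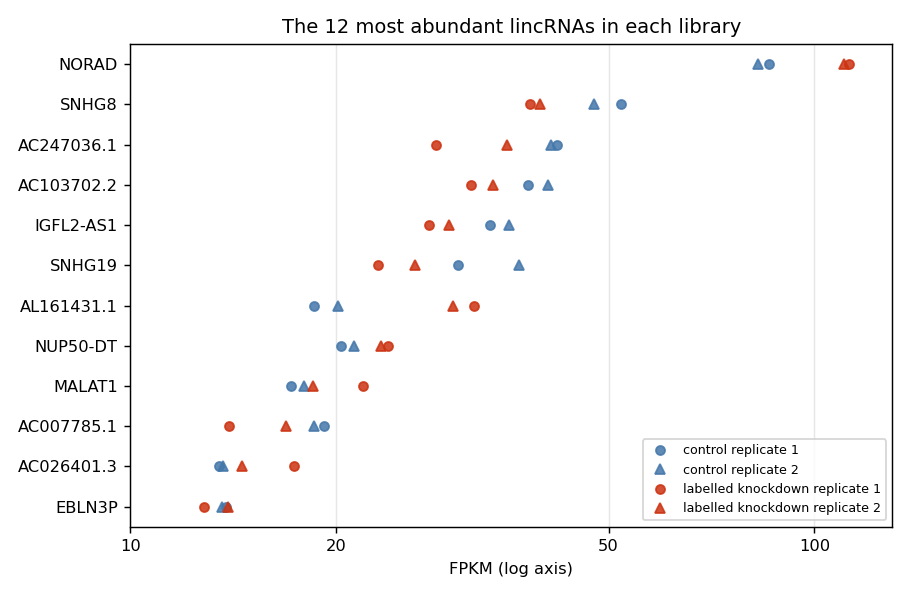
FPKM (log axis) of the 12 most abundant lincRNAs, 1 point per library, with circles and triangles for replicates 1 and 2. NORAD sits apart at 82.8 to 112 FPKM, and EBLN3P is the only 1 of the 12 whose groups overlap.

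AL161431.1, on chr13:109269634-109278512, was at 18.6 and 20.1 FPKM in the controls and at 31.7 and 29.6 in the labelled group. All 4 libraries held at least 1661 reads of it, the groups lay far apart, and the difference was 0.64 ± 0.06 (adjusted p = 0.0026). AC103702.2, on chr17:48635923-48647023 next to the HOXB genes, was at 38.1 and 40.7 FPKM in the controls and lower, at 31.5 and 33.9, in the labelled group (-0.26 ± 0.05, adjusted p = 0.023). IGFL2-AS1, on chr19:46189166-46203083, fell from 33.5 and 35.8 FPKM to 27.3 and 29.2 (-0.28 ± 0.05, adjusted p = 0.017). Its gene body runs across the end of AC007785.1 on the other strand, which was at 19.2 and 18.5 FPKM against 14.0 and 16.9 and did not pass (-0.28 ± 0.09, adjusted p = 0.073).

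NUP50-DT, which starts 60 bases from the nucleoporin gene NUP50 and runs the other way, was at 20.4 and 21.2 FPKM in the controls and at 23.8 and 23.3 in the labelled group. That rise of 0.17 ± 0.04 (adjusted p = 0.032) was the smallest called among the 12. AC247036.1 lies on chr14:106206603-106208571 within the immunoglobulin heavy chain locus, with 24 immunoglobulin gene entries within 100 kb, none of which exceeded 6.64 FPKM in any library. It was at 42.1 and 41.2 FPKM against 28.0 and 35.5, groups that do not overlap and a difference just short of the threshold (-0.39 ± 0.11, adjusted p = 0.052). Limma fits with quantile normalization, a 5 FPKM filter, protein-coding scaling or voom on recovered reads called AC247036.1 (adjusted p of 0.010 to 0.041). Fits with no filter, a pseudocount of 0.1 or a replicate block did not (0.051 to 0.18). EBLN3P, a pseudogene of an ancient bornavirus nucleoprotein, was level at 13.8, 13.6, 12.8 and 13.9 FPKM. AC026401.3, at 13.5 and 13.7 FPKM against 17.3 and 14.6, did not pass (0.21 ± 0.08, adjusted p = 0.12). Leaving out 1 library ended the calls of NUP50-DT (whichever was left out, adjusted p up to 0.13), of AC103702.2 without the labelled replicate 1 (0.089) or control replicate 2 (0.089), and of IGFL2-AS1 without the same libraries (0.072 and 0.067). AL161431.1 stayed at 0.018 or less.

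Across all 358 lincRNAs, 28 were called higher and 35 lower in the labelled group, 17.6% in all, where 29.9% of all tested genes were called. By direction, 7.82% of lincRNAs were called higher against 16.8% of all tested genes, and 9.78% lower against 13.0%. The 2 groups of libraries did not overlap for 197 lincRNAs (55.0%, against 69.7% of all tested genes): 87 higher (24.3%, against 35.9% of all tested genes) and 110 lower (30.7%, against 33.8%). Of these, 134 were not called, and for the other 161 lincRNAs the groups overlapped. The median log2 difference was -0.05 over lincRNAs and 0.00 over all tested genes.

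The share called followed the level of the gene. At 1 to 5 FPKM, 39 of 298 lincRNAs (13.1%) and 653 of 3306 coding genes (19.8%) were called. At 5 FPKM or more the shares were 40.0% of 60 lincRNAs and 38.1% of 7460 coding genes. The median gap between replicates was 0.19 on the log2 scale for lincRNAs and 0.07 for coding genes, and for the lincRNAs with at least 50 reads on average 26.3% were called against 9.95% of the rest. In 59 lincRNAs the mean of 1 group lay under 1 FPKM, so that they entered through the other group alone, and 4 of them were called in each direction. Among the 299 with both group means at 1 FPKM or above, 24 were called higher and 31 lower. The number called lower was 15 without control replicate 2, against 25 higher, so that library decides which direction has more lincRNAs at this threshold. At an adjusted p under 0.01 the order also turned, with 9 higher and 5 lower.

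**Figure D2:**
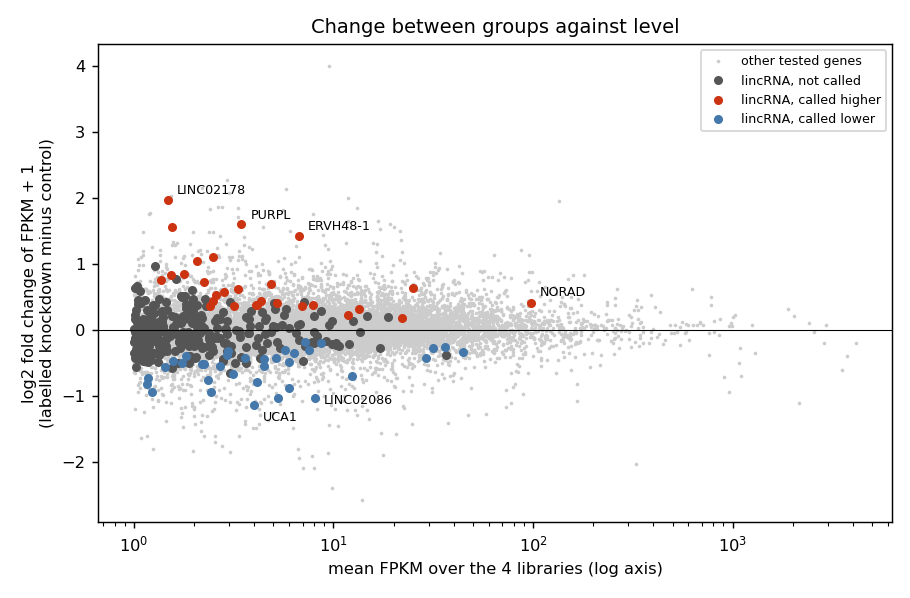
Log2 fold change of FPKM + 1 (labelled knockdown minus control) against mean FPKM (log axis) for each tested gene. Called lincRNAs are red (28 higher) and blue (35 lower), other lincRNAs dark grey and other genes light grey, and most lincRNAs lie at the left, between 1 and 5 FPKM.

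The lincRNAs that separated the groups most were picked by this same contrast, so their differences and adjusted p-values describe the choice and are no separate test of it. PURPL, a p53-induced RNA that is known to lower p53 levels, was at 1.47 and 0.964 FPKM in the controls and at 5.80 and 5.57 in the labelled group. From 68 and 50 reads in the controls it reached 264 and 249, a difference of 1.60 ± 0.13 (limma adjusted p = 0.0020), and no tested coding gene lay within 1 Mb. Its promoter is shown because p53 binding there is the background known for this gene. The 300 bases from 250 before to 50 after the RefSeq start (GRCh38.p14, chr5:27472042-27472341, plus strand) held a full p53 element, the p53 motif of 10 bases present back to back, at -127 to -108 from the start, in capitals.
PURPL: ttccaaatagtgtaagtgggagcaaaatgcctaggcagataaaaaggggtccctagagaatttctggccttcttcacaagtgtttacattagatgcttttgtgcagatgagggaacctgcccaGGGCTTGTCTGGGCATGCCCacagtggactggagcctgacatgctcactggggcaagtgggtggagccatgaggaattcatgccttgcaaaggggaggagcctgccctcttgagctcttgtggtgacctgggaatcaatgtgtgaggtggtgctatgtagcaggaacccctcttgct

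Of 27305 RefSeq promoters of this length, 5 (0.0183%) held the full element without a mismatch, and PURPL was the only 1 of the 145 lincRNAs with a promoter in that set. A single 10-base motif, which reads alike on both strands, was in 6.54% of all promoters and in 8 of the 145. Those 8 included PURPL and LINC02323, both called higher, and AC103702.2, called lower. A match in letters is a description and does not show binding. Among the other p53-linked noncoding RNAs tested, TP53TG1 (a p53 target, on 7q) was at 3.22 and 3.68 FPKM against 4.87 and 4.61 in the labelled group and was called higher (0.37 ± 0.08, adjusted p = 0.025). MIR34AHG, host of the p53-induced microRNA miR-34a, was at 1.52 and 1.59 FPKM against 2.04 and 1.89 and did not pass (0.21 ± 0.10, adjusted p = 0.16). Of the 4 tested in this list of 14 names, PURPL, TP53TG1 and NEAT1 were called higher, where 16.8% of all tested genes were, and none lower, with a median difference of 0.36 beside 0.00 over all genes. PURPL and TP53TG1 lie in stretches of 5p and 7q where 31 of 49 and 146 of 268 coding genes were called higher. NEAT1 was also on a list of interferon-linked RNAs, whose other tested gene, HCP5, did not pass (-0.24). TP53TG1 lost its call without 3 of the libraries in turn (both labelled ones and control replicate 1, adjusted p up to 0.10), NEAT1 without 3 (both controls and labelled replicate 1, up to 0.16) while PURPL kept its call each time (0.018 or less).

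ERVH48-1, which encodes suppressyn, an endogenous retroviral envelope protein known from the placenta, had the smallest adjusted p of the lincRNAs called. It was at 3.14 and 3.24 FPKM in the controls and at 10.7 and 9.84 in the labelled group. Replicates agree within 1 FPKM in both groups, and the difference was 1.42 ± 0.06 (adjusted p = 0.00079). LINC02178, on chr16:50390916-50395133, had no read in either control library and 17 and 26 reads in the labelled group, which is 2.32 and 3.61 FPKM. Against a floor of 3 reads in a control library, the labelled libraries were at least 5.77-fold higher. With no read in the controls, LINC02178 entered the set through the labelled group alone. AC090192.2 had 6 reads over both controls and 53 over both labelled libraries, a ratio per library total of 9.46 (exact binomial 95% interval 4.07 to 26.9, counting error only).

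LINC00513, on 7q, rose from 1.41 and 1.04 FPKM to 3.87 and 3.69 (1.11 ± 0.11, adjusted p = 0.0035). LINC02323 rose from 0.780 and 0.889 FPKM to 2.17 and 2.32 (0.82 ± 0.11, adjusted p = 0.0072), and GAU1 from 3.37 and 3.59 to 6.36 and 6.04 (0.69 ± 0.06, adjusted p = 0.0027). In these 3 the groups lay well apart, and the replicates lay close together except in the controls of LINC00513 (1.41 and 1.04 FPKM). LINC02323 was under 1 FPKM in both controls and so entered the set through the labelled group alone, as did LINC00482 below. The other rises among the 12 rested on fewer reads. AC087392.5 had 11 and 7 reads in the controls and 23 and 20 in the labelled group, and AC046143.2 had 6 against 17 over both libraries of each group (ratio 3.03, interval 1.14 to 9.40). LINC00482 was at 0.906 and 0.602 FPKM against 2.32 and 1.64, and AL392172.1 at 1.01 and 1.90 against 2.87 and 3.15. Calls of these last 4 were lost when certain libraries were left out, with adjusted p up to 0.091 for AC087392.5 (without labelled replicate 1), 0.090 for AC046143.2 (without labelled replicate 2), 0.13 for LINC00482 (without labelled replicate 1) and 0.15 for AL392172.1 (without labelled replicate 2).

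UCA1, an RNA first described in bladder cancer and studied in bowel tumours, had the largest fall on the log2(FPKM + 1) scale. With a pseudocount of 0.1, LINC01537 (-1.71) and LINC02038 (-1.55) fell by more than UCA1 (-1.43). UCA1 was at 4.90 and 6.84 FPKM in the controls and at 2.19 and 1.97 in the labelled group (-1.14 ± 0.15, adjusted p = 0.0063), with the groups far apart, and it shares exon sequence with LINC01764. LINC02086 fell from 10.95 and 11.4 FPKM to 4.55 and 5.29 (-1.04 ± 0.07, adjusted p = 0.0017). It starts within AC103702.2 on the opposite strand near HOXB7, and the 2 genes share exon sequence, so without strand-specific counting reads from this stretch cannot be told apart. HOXB7, a homeobox gene, was at 43.3 ± 0.201 FPKM (SD, n = 2) in the controls and 35.7 ± 4.53 in the labelled group and did not pass (adjusted p = 0.066), and HOXB-AS3, another noncoding gene of the cluster, was called lower (35.5 and 35.3 FPKM against 28.1 and 27.5).

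LINC01537 fell from 1.81 and 2.08 FPKM to 0.544 and 0.505 (-0.95 ± 0.13, adjusted p = 0.0072). Both labelled libraries were under 1 FPKM, so LINC01537 entered the set through the controls alone. AC138512.1 fell from 8.255 and 6.565 FPKM to 2.54 and 3.67 (-1.04 ± 0.17, adjusted p = 0.011), and 2 other annotated genes carry a near-identical stretch. AC009093.4, the most abundant of the 12, fell from 14.8 and 16.1 FPKM to 10.5 and 7.88 (-0.70 ± 0.13, adjusted p = 0.018). The falls of AL023284.4, LINC02331, LINC02038, AL596094.1, WASIR2, AL606763.1 and LINC01521 lay between -0.94 and -0.67 with adjusted p of 0.019 to 0.046. AL596094.1 shares exon sequence with GDI2 on the opposite strand, and WASIR2 has a near-identical copy, WASIR1. These 7 calls were lost without at least 2 of the libraries in turn, with the highest adjusted p at 0.17, for AL596094.1 without control replicate 1. AC138512.1 was lost without control replicate 1 (0.052) and AC009093.4 without control replicate 1 or 2 (0.058 and 0.078). UCA1, LINC02086 and LINC01537 passed with each library left out.

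**Figure D3:**
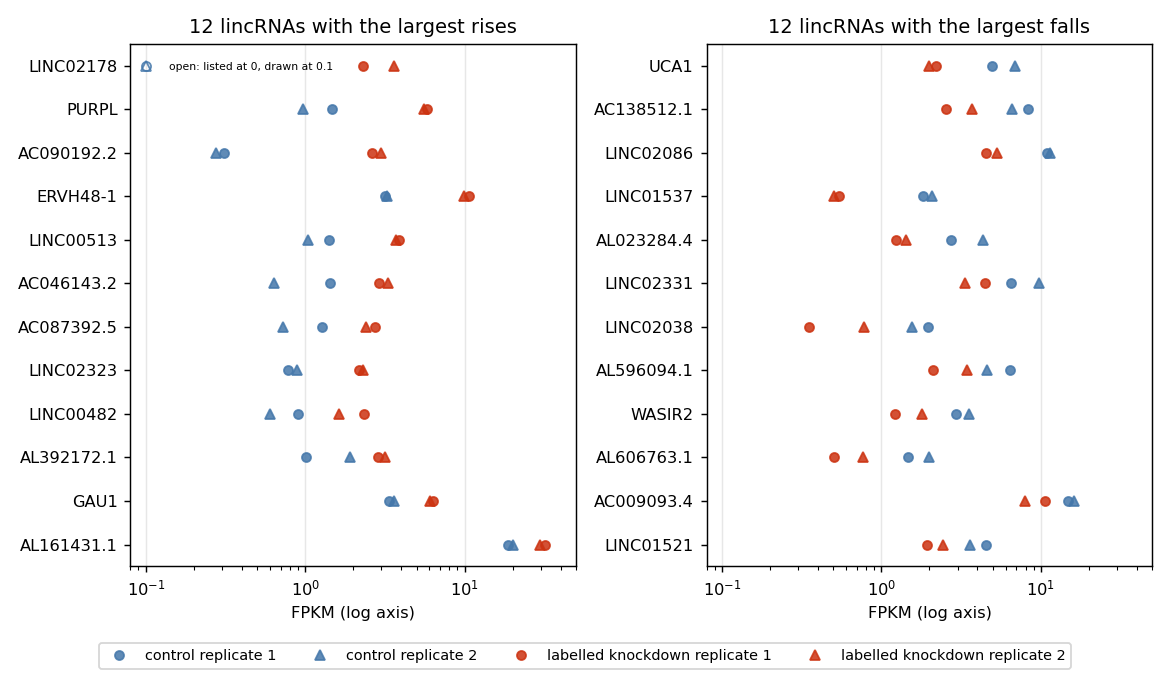
FPKM (log axis) of the 12 called lincRNAs with the largest rises (left) and the 12 with the largest falls (right), 1 point per library, with circles and triangles for replicates 1 and 2. Groups do not overlap in any row, which is how the rows were chosen, and LINC02178 was at 0 in both controls.

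The other 27 called lincRNAs were moderate. Of these, 11 were higher, by 0.22 to 0.62 at means of 2.41 to 13.5 FPKM, among them LINC01133, LINC00467 and AC245041.2. The other 16 were lower, by -0.57 to -0.18 at means of 1.43 to 7.19 FPKM, among them LINC01123 and LINC02001. Over all called genes the median size of the difference was 0.53 for lincRNAs and 0.34 for all types, and 9 lincRNAs passed with a size of at least 1, of which 6 were higher. These medians cover only genes that passed, and replicates lay further apart for lincRNAs than for coding genes. They do not compare lincRNAs with other genes as a whole. Of the 213 lincRNAs that carry only a clone name 13.6% were called, and of the 69 with a LINC symbol 26.1%. The sets also differed in depth, with a median of 30 reads per library for clone names and 68 for LINC symbols.

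Host genes of snoRNAs were the longest role list tested. A host gene is spliced to release a snoRNA from its intron, and its mature transcript often has little coding capacity. Of 25 hosts tested, 10 were called lower and 1 higher, where 13.0% of all tested genes were called lower and 16.8% higher, with a median difference of -0.22 beside 0.00 over all genes. The 8 lincRNA hosts had 5 lower and 1 higher (median -0.33), and the 17 hosts of other types 5 lower and none higher (median -0.15).

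SNHG8, host of SNORA24, fell from 52.1 and 47.7 FPKM to 38.4 and 39.7 (-0.34 ± 0.05, adjusted p = 0.0098). SNHG19 fell from 30.1 and 37.0 FPKM to 23.0 and 26.0 (-0.43 ± 0.11, adjusted p = 0.042). Both groups of libraries were separate in each, though the controls of SNHG19 lay further apart than those of SNHG8. SNHG15, host of SNORA9, fell from 8.34 and 8.55 FPKM to 6.72 and 6.501 (-0.31 ± 0.05, adjusted p = 0.011), and EPB41L4A-AS1 from 5.15 and 5.52 to 3.29 and 4.04 (-0.45 ± 0.10, adjusted p = 0.026). SNHG4 fell least, from 9.48 and 9.13 FPKM to 7.87 and 8.14 (-0.19 ± 0.05, adjusted p = 0.038), and shares exon sequence with MATR3 and SIL1, as EPB41L4A-AS1 does with EPB41L4A.

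SNHG18 went the other way, from 6.44 and 7.04 FPKM to 8.17 and 9.98 (0.37 ± 0.10, adjusted p = 0.046). It starts 125 bases from the semaphorin gene SEMA5A, which was also called higher (0.37, adjusted p = 0.010). SNHG9 was at 1.55, 3.51, 3.155 and 2.997 FPKM and SNHG25 at 1.02, 2.01, 1.25 and 0.636, with overlapping groups in both and no call. Among hosts of other types, GAS5 (47.2 and 42.6 FPKM against 36.9 and 34.9), SNHG5, SNHG3, SNHG1 and the box C/D snoRNP protein gene NOP56 were called lower. Leaving out a library ended the call of each of the 6 called lincRNA hosts at least once, with SNHG8 lost only without labelled replicate 1 (adjusted p = 0.052), SNHG15 without 3 of 4 (up to 0.059), SNHG19 without 3 (up to 0.15), EPB41L4A-AS1 without 3 (up to 0.11), SNHG18 without 3 (up to 0.17) and SNHG4 without any 1 (up to 0.16).

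**Figure D4:**
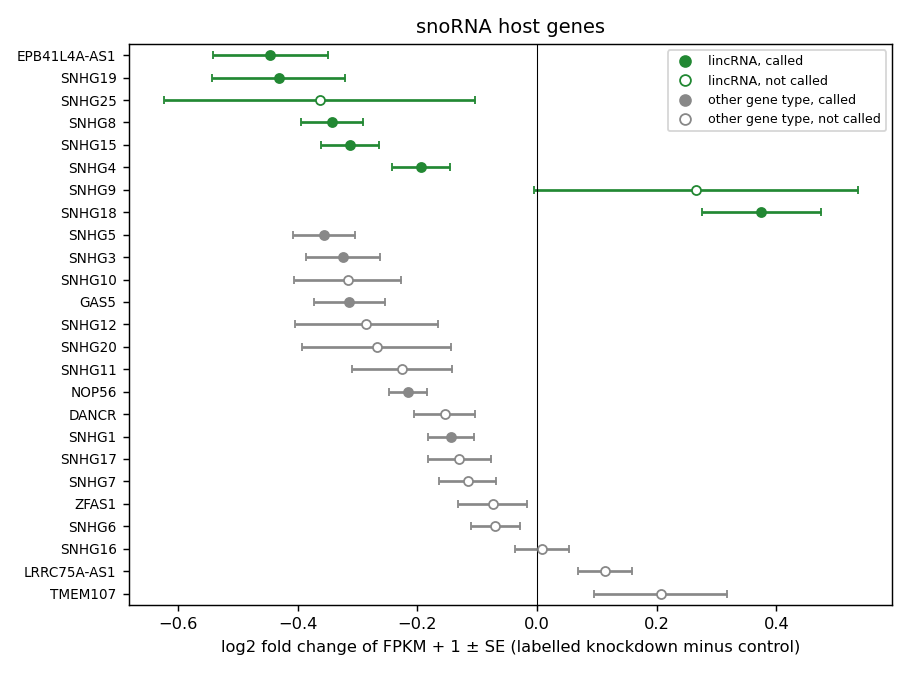
Log2 fold change of FPKM + 1 (labelled knockdown minus control) for 25 snoRNA host genes, with bars for 1 SE. Filled points passed the limma threshold, green points are lincRNAs and grey points other gene types, and 10 filled points lie to the left of 0 and 1, SNHG18, to the right.

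Many snoRNA hosts start with a run of pyrimidines, the 5′ terminal oligopyrimidine feature known from ribosomal protein genes, so the starts are shown. SNHG15 (called lower), SNHG9 and SNHG25 had no RefSeq promoter matched by name and are left out. Each line gives 20 bases before the RefSeq start and 30 from it (GRCh38.p14), and capitals mark the run of C and T that begins at the start.
SNHG19, chr16:2155329-2155378, minus strand: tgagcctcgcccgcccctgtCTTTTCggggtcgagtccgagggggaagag
SNHG4, chr5:139274081-139274130, plus strand: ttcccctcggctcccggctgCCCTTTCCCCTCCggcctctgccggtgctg
SNHG18, chr5:9546180-9546229, plus strand: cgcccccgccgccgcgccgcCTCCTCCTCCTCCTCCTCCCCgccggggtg
SNHG8, chr4:118278742-118278791, plus strand: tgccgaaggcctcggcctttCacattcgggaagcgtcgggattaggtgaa
EPB41L4A-AS1, chr5:112160506-112160555, plus strand: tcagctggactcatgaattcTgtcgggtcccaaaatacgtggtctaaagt

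Counted forward from the RefSeq start, C followed by 4 bases of C or T was present in SNHG19, SNHG4 and SNHG18. It was absent by this count in SNHG8 and EPB41L4A-AS1. The higher host SNHG18 therefore shares it with 2 lower ones. It was present in 6 of the 145 lincRNA promoters (4.14%) and in 4.04% of all 27305. Other letters searched on both strands were TGANTCA in 8 of the 145 (5.52%, against 7.76% of all), CACGTG in 13 (8.97% against 7.43%) and GAAA repeated after 2 other bases in 6 (4.14% against 3.65%).

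Nuclear body RNAs were measured in NEAT1, the scaffold of paraspeckles, and MALAT1, a transcript of nuclear speckles from the neighbouring locus on chromosome 11. NEAT1 was at 5.93 and 6.01 FPKM in the controls and at 8.75 and 7.12 in the labelled group (0.35 ± 0.10, adjusted p = 0.048). Its labelled libraries differed from each other more than the lower of them did from the controls, and the call was lost without either control or the labelled replicate 1 (up to 0.16). MALAT1 was at 17.2 and 18.0 FPKM against 21.9 and 18.5 and did not pass (0.19 ± 0.08, adjusted p = 0.16). Of the fits on all 4 libraries, only limma voom on recovered reads called MALAT1 (0.17, adjusted p = 0.017). Of 14 tested paraspeckle protein genes 2 were called, where 29.9% of all tested genes were: PSPC1 was higher (20.3 and 20.9 FPKM against 25.1 and 25.7; 0.29) and NUDT21 lower (37.1 and 37.8 against 33.7 and 33.7; -0.15).

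Genes for the decay of such RNAs were examined beside them. Of 19 tested genes of the nuclear exosome and its adaptors, DIS3 and EXOSC4 were called higher and EXOSC2 and EXOSC6 lower, with a median of 0.00. Of 15 genes of nonsense-mediated decay, which removes many spliced host transcripts, SMG5 was called higher and RBM8A lower, and UPF1, its core helicase, was level at 28.1, 28.4, 28.0 and 27.6 FPKM. The share called in these lists, 4 of 19 and 2 of 15, stands beside 29.9% over all tested genes.

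Of 8 microRNA host genes tested, 6 of them lincRNAs, none was called, where 29.9% of all tested genes were. MIR22HG came nearest, at 5.22 and 5.04 FPKM against 6.46 and 5.91 (0.23 ± 0.06, adjusted p = 0.051), and was the only one of the 6 with an unadjusted limma p under 0.05 (0.015). The voom fit on recovered reads called 1 of the 6, MIR34AHG (0.31, adjusted p = 0.034). MIRLET7BHG was level at 5.05, 5.15, 5.27 and 5.22 FPKM. MIR222HG differed by -0.21 ± 0.13 and MIR4435-2HG by 0.05 ± 0.12, and MIR210HG, host of a hypoxia-induced microRNA, was at 1.84 and 1.01 FPKM against 0.799 and 1.02 with overlapping groups. CYTOR, the near-identical relative of MIR4435-2HG, missed the level threshold at a mean of 0.983 FPKM.

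Among lincRNAs known from the MYC region and bowel cancer, 1 of the 5 tested, UCA1, was called, where 29.9% of all tested genes were. ELFN1-AS1 was at 11.8 and 12.1 FPKM against 12.95 and 13.3 (0.13 ± 0.04, adjusted p = 0.080) and CRNDE at 2.69 and 2.59 against 2.38 and 2.19 (-0.15 ± 0.08, adjusted p = 0.24). LINC00543, next to the gut transcription factor gene CDX2, was at 2.25 and 2.84 FPKM against 1.98 and 1.92. PVT1, which lies beside MYC, was at 1.84 and 1.69 FPKM against 2.24 and 2.23 and did not pass (0.23 ± 0.09, adjusted p = 0.13), while MYC was called lower (78.5 ± 1.71 against 61.6 ± 1.68 FPKM, SD, n = 2; -0.35, adjusted p = 0.0037). Of the 3 tested genes of other types on this list, LINC00659 was called higher (7.06 and 7.26 FPKM against 10.5 and 13.5) and HOXB-AS3 lower.

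Each lincRNA was set beside its nearest tested coding gene, at a median distance of 16169 bases and within 1 kb for 100 of the 358. Of the neighbours of the 28 higher lincRNAs, 11 were called higher and 2 lower, and of the neighbours of the 35 lower ones, 8 were called higher and 4 lower, where 16.8% and 13.0% of all tested genes were called in these directions. Over all 358 pairs the differences correlated weakly (Pearson r = 0.14, Spearman rho = 0.13, across genes measured in the same libraries). LincRNAs with a coding gene within 1 kb were called in 8%, and the others in 21.3%.

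Pairs that moved together were NORAD with EPB41L1 (0.85, 40544 bases away), AL161431.1 with the insulin receptor substrate gene IRS2 (0.62, 516934 bases), NEAT1 with FRMD8 (0.38) and NUP50-DT with NUP50 (67.3 ± 1.70 against 83.9 ± 3.59 FPKM, SD, n = 2; 0.31). LINC01521 fell with PATZ1, a zinc finger gene 545 bases away (18.0 ± 0.337 against 12.5 ± 0.214 FPKM; -0.50, adjusted p = 0.0021). IGFL2-AS1 and IGFL2, an insulin growth factor-like gene, went opposite ways: IGFL2 rose from 13.7 ± 0.337 to 29.5 ± 0.347 FPKM (1.06, adjusted p = 0.00068).

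**Figure D5:**
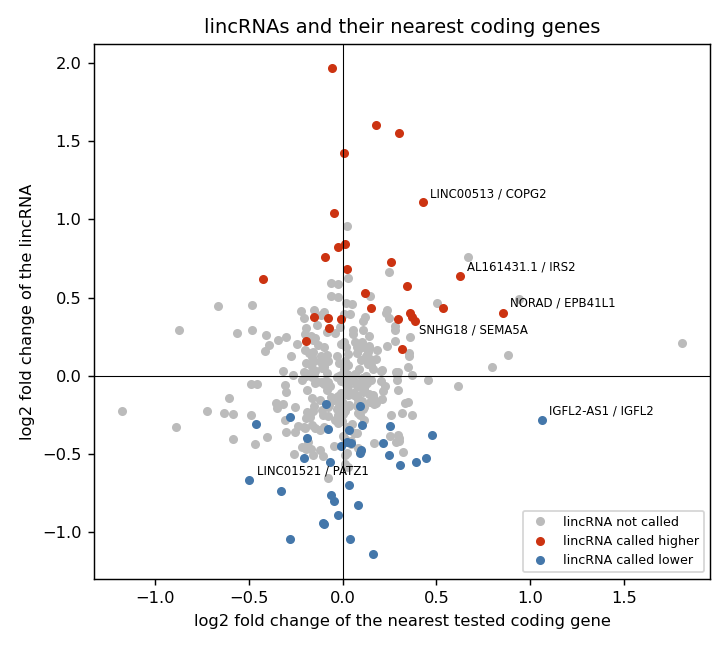
Log2 fold change of each of the 358 lincRNAs against that of its nearest tested coding gene (both labelled knockdown minus control, FPKM + 1). Called lincRNAs are red and blue, the points form no clear diagonal (Pearson r = 0.14), and IGFL2-AS1 / IGFL2 lies alone at the right below 0.

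Some of the higher lincRNAs lie in stretches where coding genes were higher as a block, which earlier results of these data had shown. LINC00513 and TP53TG1 lie on 7q from 87 to 152 Mb, where 146 of 268 coding genes were called higher and 8 lower (median 0.28). SNHG18 and PURPL lie on 5p from 0.1 to 36.2 Mb, where 31 of 49 were higher and none lower (median 0.28), and AL161431.1 and AL355338.1 on chromosome 13, with 98 of 180 higher and 6 lower (median 0.25). Of the 11 lincRNAs on chromosome 13, these 2 were higher, AL356740.1 was lower and the median was 0.01. PURPL (1.60) and LINC00513 (1.11) differed by more than those medians, and SNHG18 (0.37) by about as much as its nearest coding gene. In 11p15, where 46 of 76 coding genes were called lower, none of the 3 lincRNAs was called. Outside these stretches, 22 of 336 lincRNAs were called higher and 34 lower, beside 28 (7.82%) and 35 (9.78%) of all 358. Of all tested genes at any position, 16.8% were called higher and 13.0% lower. Whether position bears on these lincRNAs was not tested.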

How the data were processed

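RNA-seq libraries of HT8 cells (2 control, 2 labelled PPDPF knockdown, by their genotype labels) were analysed. The deposited values are FPKM per Ensembl gene. Per the submitters' processing notes reads were aligned with HISAT2 2.0.5 and the build was hg18. All 58735 gene identifiers matched GENCODE 29 (GRCh38), whose types, exons and coordinates were used here. FPKM times exon length gave whole reads for 100% of values (tolerance 0.01 reads), and depth comes from these reads. No source used here names the counting tool, its use of strand or its handling of shared exons.

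The deposited FPKM were tested as log2(FPKM + 1) with limma 3.58.1 (R 4.3.3; trend, group only, 2 residual degrees of freedom) on the 12777 genes with a mean of at least 1 FPKM. P-values were adjusted by Benjamini-Hochberg over all of them, with a threshold of 0.05. Differences are on this scale, where the added 1 shrinks those of genes with low levels. The fit was tested on simulated data. Exon overlaps came from bedtools 2.31.1 and copies (at least 98% identity over 100 bases) from BLAST 2.17.0: 89 lincRNAs shared exon sequence with another gene, 21 had such a copy and 102 had either, and their values are uncertain. Promoters are RefSeq's (GRCh38.p14) and matched 145 lincRNAs by name.

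Named genes were PPDPF, the 12 most abundant lincRNAs, the 12 called lincRNAs with the largest difference in each direction among those with separate groups, the members of role lists, the nearest coding genes, the 3 genes on either side of the threshold and the 3 nearest in profile. HCG11, AL121895.2, a few of the other called lincRNAs, coding neighbours outside the rule and more than 3 genes of a list were named after their values were seen. The lincRNAs and the lists were chosen with earlier results of these data known. Alternatives were other normalization, filters, pseudocount, a replicate block, reads with limma's voom, and leaving out each library.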

Additional observations from a re-analysis of the deposited data

How the results depend on the processing

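With no filter on level, 9 lincRNAs were called higher and 6 lower (1134 and 734 of all genes), with 28965 genes tested; the cause was not tested. With a mean of at least 5 FPKM, which left 60 lincRNAs, the counts were 11 and 20, and with an adjusted p under 0.01 they were 9 and 5 (927 and 589 of all genes). Leaving out 1 library gave 14 to 25 lincRNAs higher and 15 to 22 lower, and 1141 to 1345 and 775 to 919 of all genes. With 3 libraries the lone library of a group is assumed to vary like the others. Quantile normalization (25 and 33), a pseudocount of 0.1 (28 and 35) and scaling to protein-coding reads (24 and 44) kept both counts within 1.5 times. The limma voom fit on recovered reads called 27 and 40 lincRNAs, of which 45 were among the 63 main calls, and 5211 of all genes, 2709 of them lower; the cause was not tested. A replicate block gave 26 and 30 lincRNAs (49 of the 63 calls). Same-numbered libraries did not deviate together (r = -0.0021 over all genes, 2 pairs). The labels do not say whether they were prepared in pairs, and a correlation over 2 pairs cannot settle it. Chosen after seeing the data, leaving out lincRNAs with shared exons or copies left 21 called higher and 19 lower, fewer by construction and in the opposite order to all 358, and lincRNAs with at least 50 reads gave 20 and 24. A level of 0.5 FPKM would give 622 lincRNAs and a level of 2 FPKM 171. Of the 36 named lincRNAs that were called, 12 kept the call in every fit that tested them and 24 lost it in at least 1, with no change of direction. Among uncalled ones, with a library left out, the sign turned for EBLN3P (-0.088 to 0.021), MIR4435-2HG (-0.011 to 0.11) and SNHG9 (-0.15 to 0.68). Of lincRNAs under 50 reads 9.95% were called, and their median level was also lower (1.48 against 3.25 FPKM).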
